A study of Mus musculus with 5 samples.

Results

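The genes described here handle cholesterol after it has left the sites of synthesis: lipoprotein receptors, lysosomal and cytosolic sterol carriers, the enzyme that esterifies sterol, and proteins that carry or transfer lipid outside the cell. The set comprised Vldlr, Stard4, Npc1, Npc2, Scarb1, Soat1, Pltp and Apoe, and every probe set annotated to exactly 1 of them was taken. This gave 15 probe sets of 7 of the 8 genes, out of 22626 probe sets that are not array controls. Soat1 was not analysed here. Vldlr had 4 probe sets, Scarb1 had 3, Npc2, Pltp and Stard4 had 2 each, and Npc1 and Apoe had 1 each.

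Total RNA was hybridised to Affymetrix mouse arrays. ID8 is a line of mouse ovarian surface epithelium that gives rise to peritoneal tumours with ascites. The FBS group, described as parental, had DMEM with 10% fetal bovine serum as its medium (FBS; 3 arrays, replicates 1, 2 and 3). The ascites group was grown in DMEM with 10% ascites fluid from mice that carried ID8 tumours, for 7 days (2 arrays, replicates 2 and 3). The labels name no genetic change, and do not say whether the ascites medium also held FBS, how many mice gave the fluid, or whether the FBS culture lasted as long. Nothing in them says that replicates were separate cultures, so the spread behind the p values is that among these arrays and may be technical. The study asked how ascites changes these tumour cells.

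Cells obtain cholesterol by making it or by taking up lipoproteins. Endocytic receptors internalise whole particles, which are broken down in lysosomes, where NPC2 binds the freed cholesterol and hands it to the membrane protein NPC1 for export. Carriers such as STARD4 move it between membranes, SOAT1 stores the excess as ester, and ABCA1 with apolipoproteins removes it from the cell. The transcription factor SREBP2 drives synthesis and uptake genes when membrane sterol is low, and the LXR receptors drive efflux genes when oxysterols are high.

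Promoter sequences are shown for Vldlr and Pltp, whose transcripts rose in ascites, and for Npc2, whose signal was lower there. The sequences are from RefSeq, build GRCm38.p6, run from 250 bases before to 50 bases after an annotated start site, and read 5′ to 3′ on the gene's strand. Capitals mark matches, on either strand, to 5 motifs: TCACCCCAC (the sterol regulatory element of SREBP), TGATGCAA (the core of the element bound by ATF4 with a C/EBP partner), a direct repeat of GGTCA with any 4 bases between, CCAAT (NF-Y) and GGGCGG (Sp1). The GGTCA copies of that repeat stand closer together than in the element that LXR binds, so LXR elements were not searched. None of the marked matches overlaps another. The Vldlr window lies at chr19:27216770-27217069 on the plus strand, the Npc2 window at chr12:84773063-84773362 on the minus strand, and the Pltp window at chr2:164857659-164857958 on the minus strand.
Vldlr: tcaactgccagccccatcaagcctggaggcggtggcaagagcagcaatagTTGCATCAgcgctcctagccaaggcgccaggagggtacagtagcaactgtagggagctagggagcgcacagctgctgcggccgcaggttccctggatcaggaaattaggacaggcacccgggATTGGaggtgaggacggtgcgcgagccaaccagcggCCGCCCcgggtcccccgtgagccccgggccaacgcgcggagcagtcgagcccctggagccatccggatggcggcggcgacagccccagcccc
Npc2: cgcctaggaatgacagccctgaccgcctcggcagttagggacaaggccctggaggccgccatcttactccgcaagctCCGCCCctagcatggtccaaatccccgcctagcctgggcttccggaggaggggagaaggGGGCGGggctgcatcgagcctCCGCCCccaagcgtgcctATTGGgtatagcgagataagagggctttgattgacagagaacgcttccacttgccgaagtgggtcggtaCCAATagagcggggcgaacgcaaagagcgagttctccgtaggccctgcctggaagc
Pltp: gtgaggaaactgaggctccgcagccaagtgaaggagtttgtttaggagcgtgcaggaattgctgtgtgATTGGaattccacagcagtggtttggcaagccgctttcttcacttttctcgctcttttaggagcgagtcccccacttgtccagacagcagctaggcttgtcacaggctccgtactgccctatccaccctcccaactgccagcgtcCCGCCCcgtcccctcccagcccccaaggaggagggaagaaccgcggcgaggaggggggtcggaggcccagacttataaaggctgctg
The Vldlr window held the ATF4 core on the opposite strand, starting 200 bases before the start site. That core was present in 0.895% of all 32851 promoter windows. Because the motifs were chosen with the promoter sequences in view, this share does not measure how unlikely the match was. A second annotated Vldlr window, at chr19:27216234-27216533, held 0 matches to any of the 5 motifs. The Pltp window held 1 CCAAT and 1 GGGCGG, and the Npc2 window held 2 CCAAT and 3 GGGCGG. These motifs are common, and stood in 37.4% and 35.7% of all windows. The sterol element stood in 0.551% and the GGTCA repeat in 0.0457% of all windows. Neither stood in the windows of Vldlr, Npc2, Pltp, Soat1 or Apoe, which says only that these letters are not there. Stard4, Npc1 and Scarb1 are not among the genes whose windows were examined. Of the 16 genes on the SREBP2 target list with an entry, the sterol element stood in a window of 1 (Hmgcs1). A match is a run of letters, not a measured binding site.

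Values are log2 array signals, and a change is the ascites mean minus the FBS mean. A probe set is said to have risen or fallen where limma's p value, adjusted by the Benjamini-Hochberg method over all 22626 probe sets, was below 0.05. In ascites, Vldlr and Pltp transcripts rose, Stard4 transcript fell by more than any other member, and Npc2 and Scarb1 had lower signals that did not pass. Of the 15 probe sets, 4 rose, 2 fell and 9 did not pass, while of all probe sets 4.34% passed (2.38% rose and 1.96% fell). The arrays of the groups did not overlap for 13 of the 15, compared with 36.5% of all probe sets. The median change of the 15 was 0.02, and that of all probe sets 0.01. In bulk RNA, fewer cells with a transcript and less transcript per cell cannot be told apart.

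**Figure D1:**
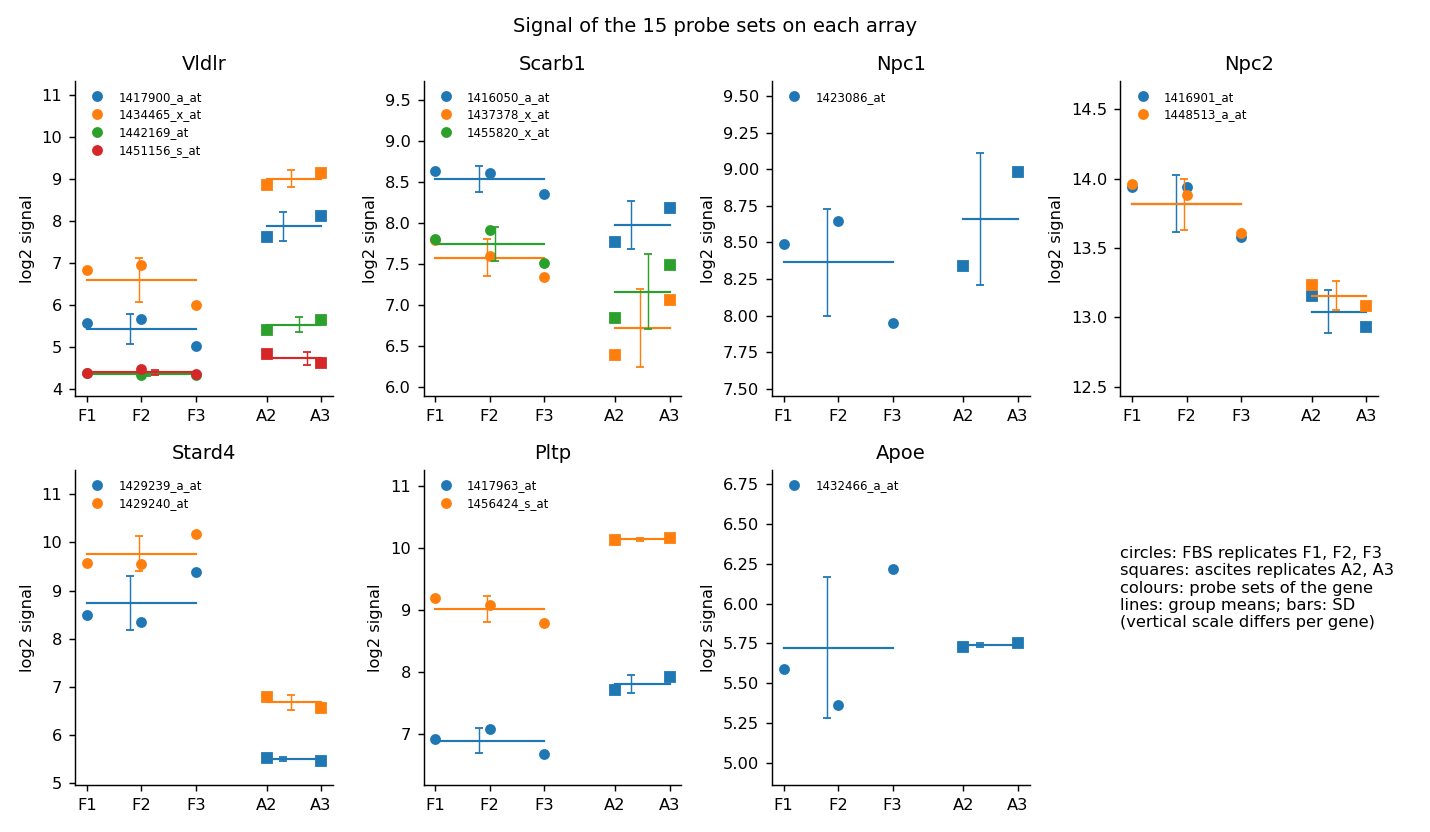
Log2 signal of the 15 probe sets on each array, with 1 panel per gene and its own vertical scale; circles are FBS replicates, squares ascites replicates, lines group means and bars SD. Groups overlap only for Npc1 and Apoe, and Vldlr, Stard4 and Pltp show the widest gaps between groups.

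The 5 arrays did not form equal groups. Over genes, the SD of the difference was 0.117 between FBS replicates 1 and 2, 0.427 between either of these and FBS replicate 3, and 0.239 between the ascites arrays. The calls depended on which arrays were used: 0 of the 15 probe sets passed when any array other than FBS replicate 3 was left out, or when FBS replicates 1 and 2 were averaged as 1 sample. At an unadjusted limma p below 0.05 there were then 9 (FBS replicate 1 left out), 10 (FBS replicate 2), 10 (ascites replicate 2), 11 (ascites replicate 3) and 10 (averaged) of the 15, beside 16.1%, 15.4%, 21.4%, 18.7% and 16.3% of all probe sets. Leaving out FBS replicate 3 gave 9 of the 15, of which 5 rose and 4 fell. Of all probe sets 0 passed in each of the first 5 settings, and 15.7% in the last (7.48% rose and 8.25% fell). Centring the arrays on their medians gave 5 risen and 4 fallen of the 15, and 3.43% risen and 3.14% fallen of all probe sets. Of 11 identity genes checked for the labelled cell type, Krt8, Wt1, Msln and Upk3b had signals between 10.83 and 14.63 and Epcam, Cdh1 and Pax8 between 4.24 and 6.05, and 2 fell (Krt18 and Krt19). Of the 11, 9 had lower means in ascites and 2 higher, with a median change of -0.88, and 4 fell without FBS replicate 3. Upk3b, Krt7 and Wt1 changed by -2.30, -2.00 and -1.43 and did not pass. Of 39 measured markers of macrophages, lymphocytes, neutrophils, endothelium, erythroid cells and hepatocytes, 0 rose and 0 fell, with array values of 3.26 to 7.74. The median of these values was 5.22 and the 90th percentile 6.59, and the highest was that of Cd14 in FBS replicate 3. Below, the 39 are called absent cell type markers, without a detection call. Of 7 fibroblast markers 0 passed and 5 had lower means in ascites, and their median change was -0.76. Dcn, a matrix proteoglycan, read 12.62 to 14.32, while the collagen genes Col1a1 and Col3a1 changed by -1.44 (adjusted p = 0.0747) and -1.31 (adjusted p = 0.2185). The 7 summed to 44.94 to 49.36 log2 units in FBS arrays and 42.72 to 44.13 in ascites arrays, 3 fell without FBS replicate 3, and their part in the results was not tested. A member signal inside the range of the 39 markers may be background, and changes that rest on one are given without a fold. That range also takes in the array medians, so lying inside it does not show that a signal is background.

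The receptors came first. Vldlr encodes the very low density lipoprotein receptor, which binds particles rich in apolipoprotein E and also the signalling protein reelin. Its brightest probe set, 1434465_x_at, read 6.83, 6.96 and 6.0 in FBS replicates 1, 2 and 3, and 8.87 and 9.15 in ascites replicates 2 and 3. The ascites arrays were both higher than every FBS array, and FBS replicate 3 was the lowest of all. The change was 2.41 (SE 0.34, 95% confidence interval 1.5 to 3.33, limma adjusted p = 0.0440).

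Probe set 1417900_a_at of Vldlr read 5.57, 5.67 and 5.02 in FBS and 7.63 and 8.12 in ascites. The order of the arrays was that of the first probe set, with a change of 2.46 (SE 0.27, adjusted p = 0.0299). Probe set 1442169_at read 4.37, 4.32 and 4.33 in FBS against 5.41 and 5.65 in ascites, so that the FBS arrays, replicate 3 included, lay within 0.05 of one another. It rose by 1.19 (SE 0.09, adjusted p = 0.0203). The fourth, 1451156_s_at, read 4.37, 4.46 and 4.35 in FBS and 4.83 and 4.61 in ascites, and its change of 0.33 did not pass (SE 0.09, adjusted p = 0.130). In the array maker's naming, an x marks a set with probes that may cross-hybridise and an s a set that matches several transcripts. The 4 probe sets therefore agreed in direction, and the changes spanned 0.33 to 2.46. All FBS signals of Vldlr lay inside the range of the absent cell type markers. So did both ascites signals of 1442169_at and 1451156_s_at, and that of ascites replicate 2 for 1417900_a_at (7.63). The rise of 1442169_at thus rests on signals that may all be background.

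Scarb1 encodes SR-BI, the receptor for high density lipoprotein that takes up cholesteryl ester without internalising the particle. Probe set 1416050_a_at read 8.64, 8.61 and 8.36 in FBS and 7.77 and 8.18 in ascites. Both ascites arrays were lower than all FBS arrays, but they differed from each other by more than the FBS arrays did. The change was -0.56 (SE 0.17, 95% confidence interval -1.01 to -0.12) and did not pass (adjusted p = 0.148).

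In the other Scarb1 probe sets, too, both ascites arrays lay below every FBS array. Probe set 1437378_x_at read 7.79, 7.60 and 7.34 in FBS and 6.39 and 7.06 in ascites, a change of -0.85 (SE 0.26, adjusted p = 0.153). Probe set 1455820_x_at read 7.80, 7.92 and 7.51 against 6.84 and 7.49, a change of -0.58 (SE 0.25, adjusted p = 0.271), with ascites replicate 3 only just below FBS replicate 3. In both of these sets the ascites signals and FBS replicate 3 lay inside the range of the absent cell type markers. In all 3 the lowest array was ascites replicate 2, and none passed without FBS replicate 3 (adjusted p = 0.107, 0.131 and 0.209).

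In the lysosome, both probe sets of Npc2 had lower signals in ascites. The gene encodes the small soluble protein that binds cholesterol in the lysosomal lumen. Probe set 1416901_at read 13.94, 13.94 and 13.58 in FBS and 13.15 and 12.93 in ascites, and 1448513_a_at read 13.96, 13.88 and 13.61 against 13.23 and 13.08. Both probe sets put the arrays in nearly the same places, with the ascites arrays lowest and FBS replicate 3 between the groups. The changes were -0.78 (SE 0.15, 1.72-fold lower) and -0.66 (SE 0.13, 1.58-fold lower), and neither passed (adjusted p = 0.0736 and 0.0749). Without FBS replicate 3 both passed (changes of -0.90 and -0.77, adjusted p = 0.0254 and 0.0235), as they did with the arrays centred on their medians (adjusted p = 0.0362 and 0.0391).

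Npc1, its membrane-bound partner, read 8.49, 8.65 and 7.95 in FBS and 8.34 and 8.98 in ascites. The groups overlapped, and each held both a lower and a higher array. The change was 0.30 (SE 0.31, adjusted p = 0.620). Its 95% confidence interval ran from -0.53 to 1.12, which spans ratios of ascites to FBS from 0.693 to 2.18. Whether Npc1 and Npc2 differed in their response was not tested.

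Stard4 encodes a soluble carrier of the START family that moves cholesterol between membranes and is a textbook SREBP2 target. Probe set 1429240_at read 9.57, 9.55 and 10.18 in FBS and 6.79 and 6.57 in ascites. Every ascites array was lower than every FBS array, and FBS replicate 3 was the highest. The change was -3.09 (SE 0.24, 95% confidence interval -3.73 to -2.45, adjusted p = 0.0210).

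The second Stard4 probe set, 1429239_a_at, read 8.50, 8.35 and 9.39 in FBS and 5.53 and 5.47 in ascites. It fell by 3.25 (SE 0.35, 95% confidence interval -4.20 to -2.29, adjusted p = 0.0295). All ascites signals of Stard4 lay inside the range of the absent cell type markers. Without FBS replicate 3 the changes were -2.93 and -2.88 (adjusted p = 0.0104 for both).

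Outside the cell, Pltp encodes the phospholipid transfer protein, which moves phospholipid between lipoproteins and is an LXR target. Probe set 1456424_s_at read 9.19, 9.08 and 8.79 in FBS and 10.13 and 10.16 in ascites. The lower ascites array lay 0.94 above the highest FBS array, and the ascites arrays lay close to each other. It rose 2.18-fold (change 1.13, SE 0.14, 95% confidence interval 0.76 to 1.49, adjusted p = 0.0347).

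Probe set 1417963_at of Pltp read 6.91, 7.07 and 6.67 in FBS and 7.70 and 7.91 in ascites. The order of the groups was the same, and the change of 0.92 (SE 0.15) just missed the threshold (adjusted p = 0.0548). Its FBS signals and that of ascites replicate 2 lay inside the range of the absent cell type markers. It passed with quantile normalization (adjusted p = 0.0327) and without FBS replicate 3 (0.0373).

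Apoe encodes apolipoprotein E, the ligand through which the VLDL receptor and other endocytic receptors bind particles, and, like Pltp, an LXR target in macrophages. It read 5.59, 5.36 and 6.22 in FBS and 5.73 and 5.75 in ascites. The ascites arrays lay within the span of the FBS arrays, and all 5 signals lay inside the range of the absent cell type markers. The change was 0.02 (SE 0.28, 95% confidence interval -0.74 to 0.77, adjusted p = 0.985), and its sign depended on which FBS array was left out. Macrophages make much Apoe and Pltp. The 12 measured macrophage markers summed to 60.85 to 61.9 log2 units in FBS arrays and 61.94 to 63.06 in ascites arrays, 8 of the 12 were higher in ascites, and 0 passed. Their median change was 0.03, and the largest changes were those of Cd68 (0.52) and Cd14 (0.38). The pan-leukocyte gene Ptprc read 3.34 to 3.51 on all 5 arrays. Their part in the rise of Pltp was not tested.

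**Figure D2:**
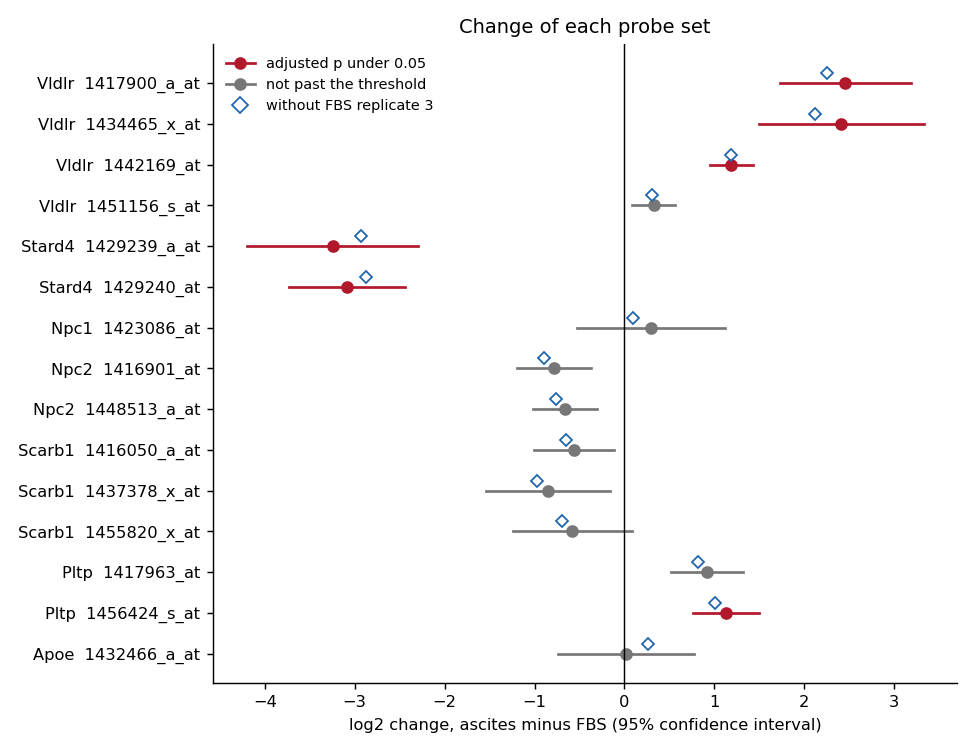
Log2 change (ascites minus FBS) of the 15 probe sets with the 95% confidence interval from limma; red marks an adjusted p below 0.05, grey the rest, and open diamonds the change without FBS replicate 3. Stard4 lies lowest, at -3.25 and -3.09, and Vldlr highest, at 2.46 and 2.41.

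Probe sets of 1 gene agreed in direction for all 5 genes with more than 1. Their changes differed by 0.16 in Stard4, 0.12 in Npc2, 0.20 in Pltp and 0.29 in Scarb1, and by 2.13 in Vldlr. FBS replicate 3 departed from the mean of FBS replicates 1 and 2 in opposite directions for different members. It was higher for Stard4 (by 0.97 and 0.62) and Apoe (by 0.75). It was lower for Npc1 (-0.62), for the Vldlr probe sets 1434465_x_at and 1417900_a_at (-0.90 and -0.60), and for Npc2, Scarb1 and Pltp (-0.27 to -0.36). For Stard4, Pltp and these 2 Vldlr probe sets it thus lay further from the ascites arrays than the other FBS arrays did, and for Npc2 and Scarb1 nearer to them.

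**Figure D3:**
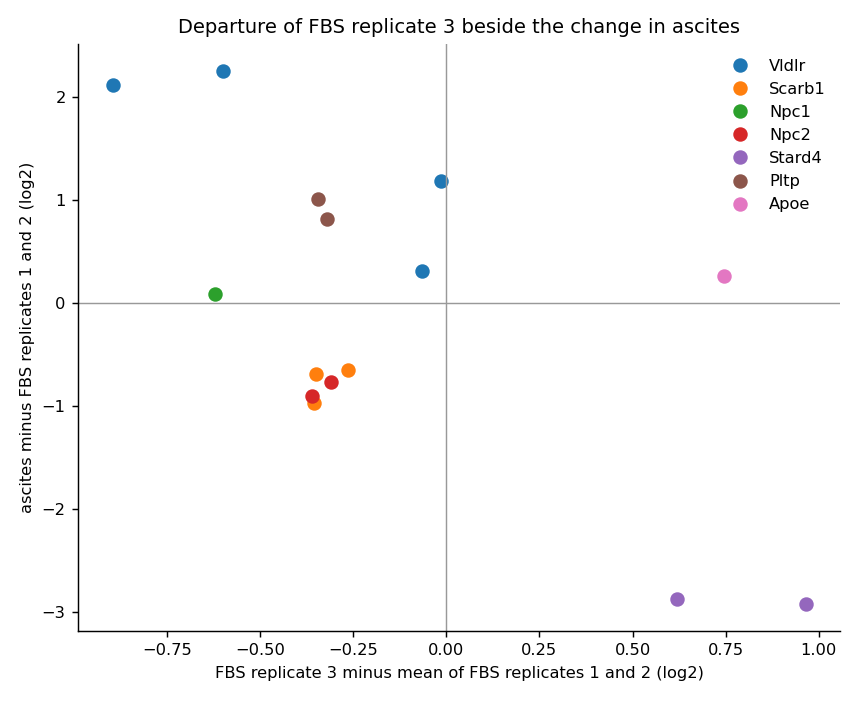
Departure of FBS replicate 3 from the mean of FBS replicates 1 and 2 (horizontal, log2) beside the change in ascites relative to those same replicates (vertical, log2), 1 point per probe set. Both axes share the mean of FBS replicates 1 and 2; Stard4 lies at lower right, Vldlr and Pltp at upper left, and Npc2 and Scarb1 at lower left.

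The profiles most like the leading members were sought over the 5 arrays, each probe set centred on its mean. Nearest to the 1429239_a_at profile of Stard4 were 3 genes. Idi1, the isomerase of the isoprenoid pathway, differed from it by a root mean square of 0.12, Fdps, farnesyl diphosphate synthase, by 0.28, and Mgp, a matrix protein that inhibits calcification, by 0.30. Idi1 fell by 3.14 and Fdps fell by 3.33 (adjusted p = 0.0271 and 0.0215), while the other probe set of Fdps read 3.04 on all arrays. Nearest to the 1417900_a_at profile of Vldlr were Glipr1, a secreted or membrane protein of the pathogenesis-related family, at 0.09, Fetub, a protease inhibitor made mainly by liver, at 0.23, and Dach2, a transcription cofactor, at 0.23. Glipr1 rose by 2.35 (adjusted p = 0.0271), Fetub by 2.16 (adjusted p = 0.0165) and Dach2 by 2.74 (adjusted p = 0.0192).

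The 7 lists of receptors, adaptors, lysosomal, carrier, ester, efflux and lipase genes held 72 measured genes that are not members, each represented by its brightest probe set. Of these 2 rose, 0 fell and 70 did not pass (23, or 31.9%, had an unadjusted limma p below 0.05, as did 24.3% of all genes), with a median change of -0.02, while over all 12393 genes 4.78% passed (2.46% rose and 2.32% fell), and the median was 0.00. Centred on the array medians, 4 rose and 2 fell (3.39% and 3.79% of all genes), and without FBS replicate 3, 3 rose and 10 fell (8.04% and 9.85% of all genes).

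The pair that rose act outside the cell or at its surface. Abca1, which exports cholesterol and phospholipid to apolipoproteins, read 7.26, 7.16 and 6.43 in FBS and 10.00 and 9.35 in ascites. Both ascites arrays were far above the FBS arrays, whose signals lay inside the range of the absent cell type markers. It rose by 2.73 (SE 0.35, adjusted p = 0.0380), but the 2 other probe sets of Abca1, with signals of 3.38 to 4.23, changed by 0.03 and 0.00. Angptl4, a secreted inhibitor of lipoprotein lipase, rose 2.16-fold, from 9.62 ± 0.04 (SD, n = 3) to 10.74 ± 0.23 (SD, n = 2; change 1.11, SE 0.11, adjusted p = 0.0271). Its second probe set also rose (0.75, adjusted p = 0.0423). The signals of that set, 3.36 to 4.29, all lay inside the range of the absent cell type markers and may be background. The lipase itself, Lpl, read 13.03 to 13.81 on all arrays and did not pass (change 0.17, adjusted p = 0.760).

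Among the other receptors, 0 of 14 measured genes passed. Lrp1, a large endocytic receptor for remnants and many other ligands, changed by -1.31 (SE 0.30, adjusted p = 0.0945), and Lsr, the lipolysis-stimulated lipoprotein receptor that is also a tricellular junction protein, by -1.41 (SE 0.43, adjusted p = 0.160). Both passed without FBS replicate 3 (adjusted p = 0.04995 and 0.0104), as did Lrp10 (change without it -0.56, adjusted p = 0.0461). Dab2, an endocytic adaptor of lipoprotein receptors, had the smallest p of its list. It read 12.14, 12.16 and 10.93 in FBS and 9.77 and 9.42 in ascites, a change of -2.15 that did not pass (SE 0.45, adjusted p = 0.0842). FBS replicate 3 lay between the groups, and without it the change was -2.56 (adjusted p = 0.0133). Another Dab2 probe set, 1423805_at, read 10.80, 10.84 and 8.27 in FBS and 7.78 and 7.91 in ascites (change -2.125, adjusted p = 0.278). There FBS replicate 3 lay near the ascites arrays. Probe set 1430604_a_at changed by -0.72 (adjusted p = 0.124).

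Of the 7 other lysosomal genes 0 passed. Lipa, the lysosomal acid lipase that frees cholesterol from its esters, changed by -0.24 (SE 0.14, adjusted p = 0.406), and Tmem97, an NPC1-interacting protein, by -1.44 (SE 0.48, adjusted p = 0.181). Of the 18 other carriers 0 passed. Fabp5, a fatty acid carrier, changed by -1.96 (adjusted p = 0.124), Scp2 by -0.60 (adjusted p = 0.0626) and Osbpl2, an oxysterol-binding protein relative, by 1.47 (adjusted p = 0.0972). The other probe sets of Scp2 changed by 0.055, -0.285 and -0.37, and none passed. Stard3, a late endosomal relative of Stard4, changed by -0.30 (SE 0.12, adjusted p = 0.249). Without FBS replicate 3, 6 of the 19 measured carriers fell, Stard4 among them, and 0 rose, while 9.85% of all genes fell. Of the carriers named here, Scp2, Fabp5 and Stard3 were then among the fallen (adjusted p = 0.0162, 0.0232 and 0.0459). Of 5 measured ester and droplet genes 0 passed. Plin2, which coats lipid droplets, had the smallest p there, with 12.68, 12.70 and 12.12 in FBS and 13.69 and 13.70 in ascites (change 1.2, SE 0.21, adjusted p = 0.0624; adjusted p = 0.0104 without FBS replicate 3).

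**Figure D4:**
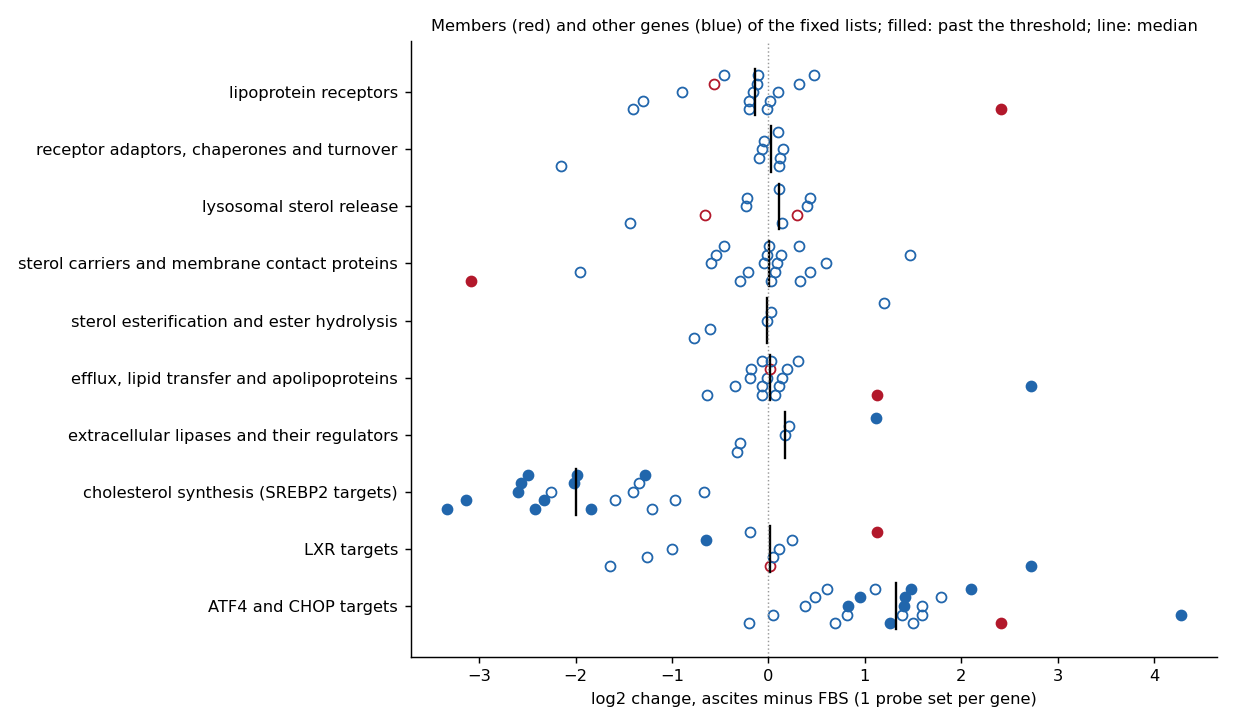
Log2 change (ascites minus FBS) of each measured gene on the lists, 1 probe set per gene; red marks members, blue other genes, filled points an adjusted p below 0.05, and vertical lines the list medians. The transport lists centre near 0, and their filled points are Vldlr, Stard4, Abca1, Pltp and Angptl4. Some unfilled points there lie further from 0 than Pltp and Angptl4, among them Dab2 (-2.15), Fabp5 (-1.96) and Osbpl2 (1.47). The cholesterol synthesis list centres at -2.00 and the ATF4 list at 1.32.

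Lists of targets of 3 regulators were counted beside the members. Of all genes 2.46% rose and 2.32% fell. The list of cholesterol synthesis genes and SREBP2 targets, in which Stard4 was not included, had 11 of 18 measured genes fallen, 0 risen and a median of -2.00. Its largest changes past the threshold were those of Fdps, Idi1, Srebf2, which encodes SREBP2 (-2.60, SE 0.08, adjusted p = 0.00914), and Hmgcs1, the synthase that starts the pathway (-2.57, SE 0.12, adjusted p = 0.0141).

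The ATF4 and CHOP target list, to which Vldlr belongs, had 9 of 22 measured genes risen, 0 fallen and a median of 1.32. Without Vldlr, 8 of 21 rose and 0 fell, with a median of 1.26, while 2.46% of all genes rose. Besides Vldlr, the rule for named genes gave Cth, which makes cysteine (4.28, SE 0.25, adjusted p = 0.0173), Slc7a11, the cystine transporter (2.10, adjusted p = 0.0271) and Fgf21, a secreted stress hormone (1.48, adjusted p = 0.0246). The FBS signals of Cth (6.68 to 7.44), Slc7a11 (7.08 to 7.67) and Fgf21 (5.84 to 6.24), like those of Vldlr, lay inside the range of the absent cell type markers and may be background. Those of Cth and Slc7a11 all lay above the 90th percentile of the marker values (6.59).

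The LXR target list, which holds Pltp and Apoe, was divided. Of 11 measured genes 2 rose (Abca1 and Pltp), 1 fell (Lpcat3, a lysophospholipid acyltransferase; -0.65, SE 0.09, adjusted p = 0.0410), and the median was 0.02. Without Pltp and Apoe, 1 of 9 rose and 1 fell, with a median of -0.19. These medians are the changes of Apoe and Abcg1. The signals of Apoe, Abcg1, Mylip, Nr1h3 and Smpdl3a (3.5 to 6.24) all lay inside the range of the absent cell type markers. They may be background, so the medians may not describe a response. Listed genes of fatty acid synthesis had lower signals that did not pass: Srebf1 changed by -1.0 (adjusted p = 0.0941), Scd1 by -1.26 (adjusted p = 0.0578) and Scd2 by -1.64 (adjusted p = 0.0519). Abcg1, a second sterol exporter, read 4.43 to 4.67 on all arrays and changed by -0.19 (adjusted p = 0.110), and Mylip, which degrades lipoprotein receptors, changed by 0.11 (adjusted p = 0.407). Without FBS replicate 3, 2 of the 11 rose and 4 fell.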

How the data were processed

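The authors deposited 1 log2 signal per probe set and array, with 2 decimals. Affymetrix Expression Console made these values, per the submitters' processing notes. The sources used here do not give its version or the method of summarising probes. The files carry no background or detection call, and the small number of arrays limits the precision. The log2 values were used as they stand, because their distributions nearly coincide (medians of 7.39 to 7.47 per array).

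Of 22690 probe sets, 64 array controls were left out. The platform annotation gave 1 gene to 20380 probe sets, several to 691 and none to 1555. Entrez identifiers matched 20351 of the first to a RefSeq table of GRCm38.p6. The 22626 remaining probe sets entered 1 fit of group with limma (version 3.58.1, R 4.3.3; linear model, empirical Bayes, two-sided), which left 3 residual degrees of freedom. Adjustment was by Benjamini-Hochberg over all of them at 0.05. Lists used 1 probe set per gene, that with the highest mean over all arrays. Likeness was the root mean square difference of mean-centred profiles. The fit was tested on simulated data.

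The members and lists were chosen with earlier results of these data known, and the motifs with the promoter sequences in view. By rule, the text names every member probe set, from each list up to 4 genes that passed, by size of change (or, if none passed, that with the smallest p), and the 3 genes most like the largest rise and the largest fall. Other list genes were chosen after their values were seen. The alternatives left out each array, averaged FBS replicates 1 and 2, took the replicate number as a block, or changed the normalization, centring, dim filter, unit of the fit, variance prior or array weights.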

Additional observations from a re-analysis of the deposited data

How the results depend on the processing

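The direction of change of the 13 member probe sets of Vldlr, Stard4, Npc2, Scarb1 and Pltp was the same under every alternative that could be run on them. Leaving out 1 array gave Npc1 changes of -0.0233 (without ascites replicate 3) to 0.617 (without ascites replicate 2). It gave Apoe changes of -0.165 (without FBS replicate 2) to 0.265 (without FBS replicate 3), with -0.05 without FBS replicate 1. Apoe was also negative with FBS replicates 1 and 2 averaged (-0.1075), with the replicate block (-0.05) and with quantile normalization (-0.0073). Counts of limma calls moved more. Leaving out 1 array gave 0 to 9 member probe sets, 0 to 13 other transport genes and 0 to 3559 probe sets in all, where 0 came from leaving out any array but FBS replicate 3 (then 9 to 11, 15 to 19 and 3474 to 4852 at an unadjusted p below 0.05). Averaging FBS replicates 1 and 2 gave 0 members (10 at an unadjusted p below 0.05), 0 transport genes (17) and 0 of all probe sets (3680). The replicate number as a block gave 0 members (10), 0 transport genes (13) and 0 of all (3417). Deviations of same-numbered arrays correlated at 0.03 and 0.05, and the labels do not say what the numbers share. Array weights gave 10 members, 19 transport genes and 3728 probe sets, and median centring gave 6 transport genes and 1488 probe sets. Without the dimmest 25% of probe sets, 4 transport genes passed. With 1 probe set per gene, 3 of 7 members passed (Vldlr, Pltp and Stard4) and 654 of all 12393 genes. By the same probe sets, 593 of these genes passed in the main fit. The cause of the shifts was not tested. Where a single array remained in a group, its spread was taken from the other group. The number of arrays and the missing detection calls limit what can be said of dim members.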
